A study of Mus musculus with 4 samples.

Results

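The cells described here are hair cells of mouse inner ear organoids that held Grp and Atoh1 transcripts together and few or none of the transcripts that mark other hair cell classes. They were chosen by UMI counts, a UMI being 1 counted RNA molecule, among barcodes with at least 1000 detected genes and at most 15% mitochondrial UMIs. A hair cell gate required at least 100 CPM of Otof and 200 CPM of Myo6, where CPM is the UMIs of a gene scaled to a cell total of 1e6 UMIs. Within the gate a cell needed at least 3 UMIs of Grp and 2 of Atoh1, fewer than 3 of Ocm and of Agr3, fewer than 2 of Cib3 and fewer than 5 of Bmp2. In all, 391 cells met every limit, of 3291 gated hair cells, 15416 cells past the cell filter and 18207 deposited barcodes. They are called Grp-positive cells below, and the remaining 2900 gated cells are called the other hair cells.

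Hair cells are the mechanosensory receptors of the inner ear. They arise when prosensory cells switch on Atoh1, a basic helix-loop-helix transcription factor, while Delta and Jagged ligands on the young hair cell hold its neighbours in the supporting cell fate through Notch. Atoh1 then declines as the hair bundle, the ribbon synapse and the basolateral ion channels are assembled. Grp encodes gastrin-releasing peptide, a neuropeptide stored in secretory granules. Otof encodes otoferlin, the calcium sensor of hair cell exocytosis, and Myo6 a myosin motor of the hair cell apex.

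The study followed organoids over days in culture, with 1 single-cell library for each of 4 groups. These were day 16, day 20, day 21 sorted as GFP high and day 21 sorted as GFP low. All groups came from the Atoh1-nGFP embryonic stem cell line, in which a nuclear GFP reports Atoh1, and the protocol in the labels has entire organoids taken apart into cells and passed through a flow sorter by GFP before loading on a 10x Genomics chip. A GFP gate is named in the labels for day 21 alone, and the labels' description speaks of nuclei where the protocol speaks of cells. Because each group is 1 library, no p-value was computed, and all intervals below are exact 95% intervals that cover counting error only. The values of the genes used in the choice describe that choice, and every other difference between Grp-positive and other hair cells comes from the same cells, so it is given as a description.

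The label was checked against hair cell markers. Of 23 hair cell markers, among them Otof, Myo6 and Atoh1 of the rule, 22 reached 10 CPM in Grp-positive cells of every library, and their summed level was 9057, 9985, 10622.2 and 8476 CPM at day 16, day 20, GFP high and GFP low, against 9967, 10315, 10602.3 and 8675 CPM in the other hair cells. Supporting cell markers, most of their level being Sox2, which hair cells also hold, summed to 452.4, 524.6, 575.6 and 656.7 CPM in Grp-positive cells, against 433.4, 381.7, 753.5 and 578.3 CPM in the other hair cells. Grp-positive cells thus held the higher sum in every library except GFP high. This sum includes Agr3, which the rule limits in Grp-positive cells alone, so it describes the choice in part. Mesenchymal markers summed to 120.9, 60.45, 28.21 and 19.73 CPM in Grp-positive cells, against 622.0, 556.7, 57.45 and 39.56 CPM in the other hair cells, and neuronal markers to 1629, 798.8, 1082 and 1146 CPM in Grp-positive cells, against 1165, 851.4, 955.7 and 998.3 CPM in the others. Pluripotency markers stayed at or below 10.96 CPM in Grp-positive cells of each library. Markers of Merkel cells, skin mechanosensory cells that also depend on Atoh1, summed to 5784, 4512, 5979 and 5483 CPM in Grp-positive cells and 6368, 6578, 4205 and 2241 CPM in the other hair cells, mostly through Ccer2.

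Median depth was 35757, 23743, 33582 and 29740 UMIs per Grp-positive cell at day 16, day 20, GFP high and GFP low, against 33205, 17141, 30604 and 25567 UMIs in the other hair cells. Mitochondrial UMIs set the GFP low Grp-positive cells apart before any gene is considered. The median mitochondrial share was 2.84%, 1.57%, 3.05% and 0.333% in Grp-positive cells, against 3.74%, 1.55%, 6.43% and 7.25% in the other hair cells, and 26 of 32 GFP low Grp-positive cells lay under 1%, against 62 of 273 in GFP high. Their part in the differences below was not tested, and the main results are given with and without such cells where they move. Doublet scoring marked 4 of 67, 1 of 19, 2 of 273 and 0 of 32 Grp-positive cells, against 6 of 89, 7 of 109, 97 of 2051 and 48 of 651 other hair cells. Among kept cells 21 barcodes occurred in more than 1 library, none of them Grp-positive in both, and 1 barcode of a GFP high Grp-positive cell also occurred at day 16.

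Grp-positive cells were most frequent among the hair cells of day 16. They were 67 of 156 gated cells at day 16 (42.95%, interval 35.06 to 51.11), 19 of 128 at day 20 (14.84%, 9.18 to 22.21), 273 of 2324 in GFP high (11.75%, 10.47 to 13.13) and 32 of 683 in GFP low (4.69%, 3.23 to 6.55). The day 16 interval lies above the other 3, and the GFP high interval lies above that of GFP low. As a share of all kept cells the order was different, with 7.70% in the GFP high library and 1.92%, 0.417% and 0.837% in the day 16, day 20 and GFP low libraries. The GFP gate can set how many hair cells a library holds. The GFP low share rests on cells of low mitochondrial content: among cells with at least 1% mitochondrial UMIs it was 6 of 610, or 0.984%, and the GFP high share was 9.67%.

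**Figure D1:**
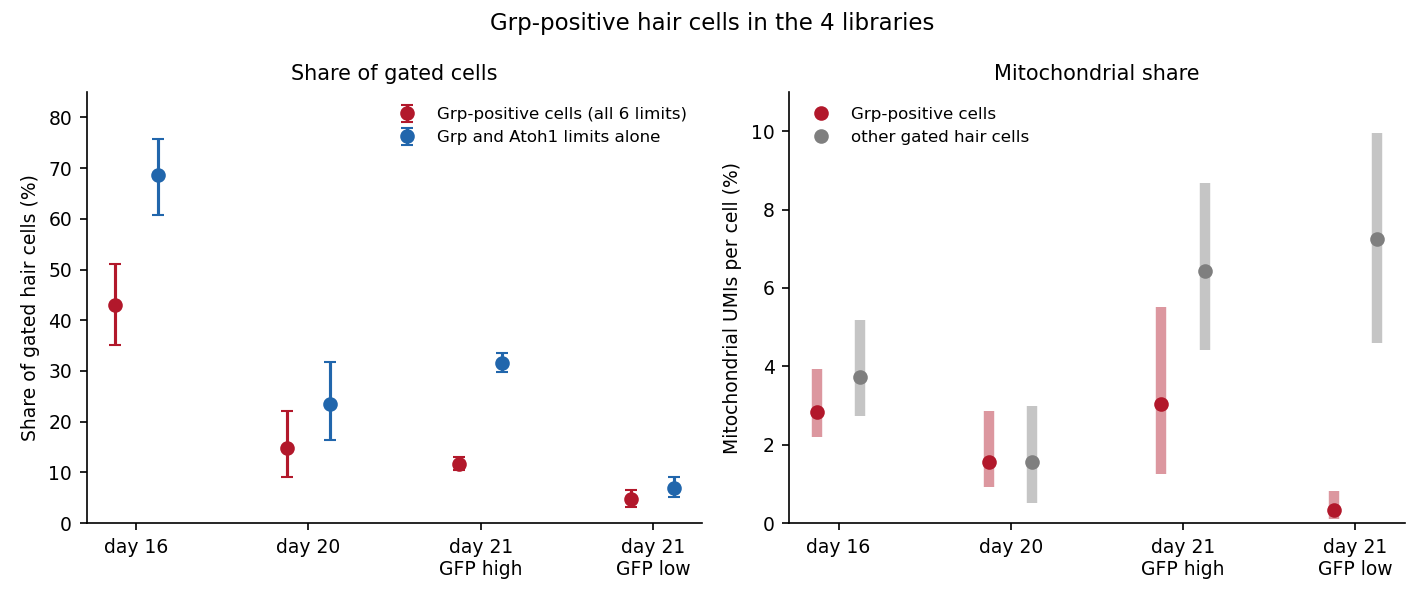
Left, percent of gated hair cells that are Grp-positive, and percent that pass the Grp and Atoh1 limits alone, in each of the 4 libraries, with exact 95% binomial intervals. Right, median (dot) and quartiles (bar) of the mitochondrial share of UMIs in Grp-positive and other hair cells, where the GFP low Grp-positive cells sit lowest at 0.333%.

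The limits on Grp and Atoh1 alone were met by more cells. At day 16 there were 107, at day 20 there were 30, and the day 21 gates held 736 (GFP high) and 47 (GFP low), or 68.59%, 23.44%, 31.67% and 6.88% of gated cells. In GFP high, 463 of these 736 cells were left out by another limit, 418 of them by Cib3, a calcium and integrin binding protein of the transduction complex that vestibular hair cells use, 88 by Agr3, 18 by Bmp2 and 15 by Ocm. Cells just inside and just outside a limit were compared by their levels. In GFP high the 18 Grp-positive cells with 3 Grp UMIs held 277.1 CPM of Atoh1 and 1592 CPM of Pvalb, and the 23 cells with 2 Grp UMIs held 313.2 CPM of Atoh1 and 1376 CPM of Pvalb. At the Cib3 limit, 86 Grp-positive cells with 1 UMI held 649.5 CPM of Otof and 1385 CPM of Pvalb, against 808.8 CPM of Otof and 1781 CPM of Pvalb in 43 cells with 2 UMIs. At the Atoh1 limit the sides in GFP high lay farther apart in Pvalb, Mcm6 and Ccer2. In GFP high the 5 Grp-positive cells with 2 Atoh1 UMIs held 573.2 CPM of Pvalb, 121.6 CPM of Mcm6 and 4777 CPM of Ccer2, against 198.3 CPM of Pvalb, 21.25 CPM of Mcm6 and 1580 CPM of Ccer2 in 4 cells with 1 UMI. In GFP low 3 Grp-positive cells there held 842.4 CPM of Pvalb and 392.1 CPM of Mcm6, against 157.2 CPM of Pvalb and 84.65 CPM of Mcm6 in 3 cells outside. These few cells held more Pvalb and Mcm6 inside the Atoh1 limit in both gates. Otof there was 920.7 CPM inside and 729.6 CPM outside in GFP high, and 363.1 CPM inside and 653 CPM outside in GFP low. At the Grp and Cib3 limits of GFP high each of Pvalb and Otof differed by less than 1.5 times. The Grp limit of GFP low also had unlike sides. Its 3 cells inside held 1394 CPM of Pvalb and 661 CPM of Mcm6, against 571.1 and 169.8 CPM in 2 cells outside.

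Atoh1 was 314, 354, 386 and 338 CPM in Grp-positive cells at day 16, day 20, GFP high and GFP low, against 204, 154, 135 and 20.8 CPM in the other hair cells. Grp was 589, 520.3, 512 and 601 CPM in Grp-positive cells, against 233, 102, 118 and 26.8 CPM in the other hair cells. Both were chosen for, by the same limits in every library, so their levels describe the choice. The reporter transcript Egfp was not a gene of the rule, but it reports Atoh1, which was, so its level is tied to the choice. Egfp was 5204, 7927, 9206 and 6050.0 CPM in Grp-positive cells, against 4795, 5075, 4111 and 982 CPM in the other hair cells. Grp-positive cells thus held the higher Egfp level in each of the 4 libraries, by 1.09 times at day 16 and 6.16 times in GFP low, where the cells had been sorted for low GFP. Otof, which defined the gate, was lower in Grp-positive cells of every library, at 334, 335, 620.4 and 513 CPM, against 511, 588, 1214 and 712 CPM in the others, while Myo6 was 1056, 887, 1273 and 1016 CPM in Grp-positive cells against 1034, 814, 1050.0 and 809 CPM in the others.

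Pvalb and Mcm6 were named with this class as its markers. Pvalb encodes parvalbumin, a cytosolic calcium buffer, and Mcm6 a subunit of the replicative helicase. Pvalb was 569.7, 1479, 1271 and 1136 CPM in Grp-positive cells at day 16, day 20, GFP high and GFP low, against 632, 702, 727 and 161 CPM in the other hair cells. The order of the groups was thus turned at day 16, where the other hair cells held more. Mcm6 was 107, 281, 209 and 286 CPM in Grp-positive cells, against 171, 79.8, 134 and 12.2 CPM in the other hair cells, again with the other hair cells higher at day 16. Neither gene was found in every Grp-positive cell: 214 of 273 GFP high Grp-positive cells held both, 22 held neither, and at day 16 the counts were 43 and 11 of 67.

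Shares of cells with these transcripts were also taken after each cell had been thinned to 10000 UMIs, and the order at day 21 was the same. Pvalb was found in 238 of 273 thinned GFP high Grp-positive cells, or 87.18%, and unthinned in 90.84%. In the other hair cells it was found in 58.73% of thinned and 68.6% of unthinned cells, and in mesenchymal cells, which should lack it, in 4.55% of thinned and 16.33% of unthinned cells with a median of 22612 UMIs. For Mcm6 the GFP high shares were 58.24% thinned and 79.49% unthinned in Grp-positive cells, 32.01% and 45% in the other hair cells, and 13.64% and 26.53% in mesenchyme. In GFP low, 24 of 30 thinned Grp-positive cells held Mcm6, or 80.0%, against 6.33% of the other hair cells. The day 16 share of Mcm6 was 41.79% in thinned Grp-positive cells and 51.16% in the other hair cells, with intervals that overlap.

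**Figure D2:**
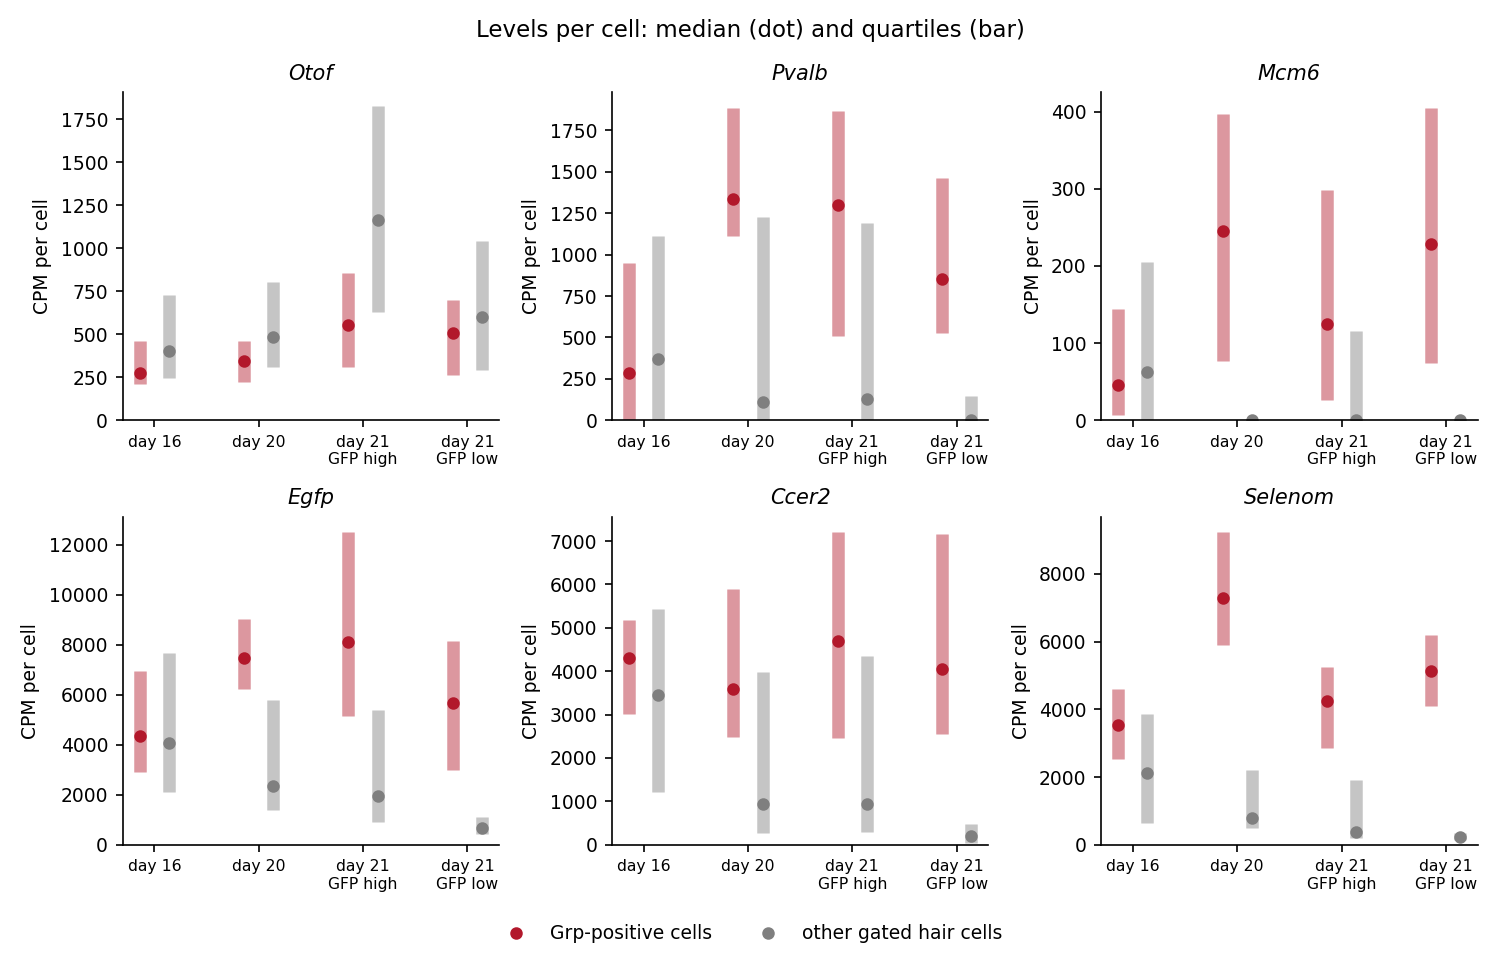
Median (dot) and quartiles (bar) of per-cell CPM of Otof, Pvalb, Mcm6, Egfp, Ccer2 and Selenom in Grp-positive and other hair cells of the 4 libraries. Selenom has its lowest Grp-positive median at day 16, at 3536 CPM, and Mcm6 has a median of 0 in the other hair cells of the later libraries.

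Other replication genes were also measured. Of 13 replication genes at 10 CPM or more in GFP high, Mcm6 included, none differed by 2-fold with an interval clear of 1, and their median log2 ratio, taken with a pseudocount of 1 CPM on both levels, was 0.24, against -0.03 over all genes. The same pseudocount is in every log2 ratio below and in none of the plain ratios. Mcm7, another helicase subunit, was 27.7 CPM in GFP high Grp-positive cells and 15.1 CPM in the other hair cells, and Pcna, the sliding clamp, was 56.2 CPM in Grp-positive and 43.9 CPM in other hair cells. Mki67 or Top2a, which mark dividing cells, were found in 5 of 273 thinned GFP high Grp-positive cells (1.83%, interval 0.597 to 4.22), against 2.43% of the other hair cells, and at day 16 in 4 of 67 (5.97%), against 5.81% of the other hair cells. In mesenchymal cells, which can themselves divide, the shares were 1 of 44 in GFP high (2.27%, interval 0.0575 to 12.02) and 11.29% at day 16. No background was measured for these genes, and no cycling was read from the shares.

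Genes were compared between Grp-positive and other hair cells within each library by a rule of size: at least 10 CPM on 1 side, a ratio of at least 2 either way, and an interval of the ratio that excludes 1. In GFP high 238 of 9554 genes were higher (2.49%) and 605 were lower (6.33%). In GFP low 865 of 9709 were higher (8.91%) and 1738 lower (17.9%). Day 20 gave 528 of 9146 higher (5.77%) and 748 lower (8.18%), and day 16 gave 110 of 9386 higher (1.17%) and 311 lower (3.31%). More genes were lower than higher in Grp-positive cells of every library, and the contrast was narrowest at day 16, where Grp-positive cells were the largest share of the hair cells. At day 16, 40 of the 89 other hair cells themselves passed the Grp and Atoh1 limits. In the day 20, GFP high and GFP low libraries 11 of 109, 463 of 2051 and 15 of 651 did. Their part in the day 16 values was not tested. The size of the contrast also depends on the comparison: within GFP high, 42 genes were higher and 245 lower when the comparison was made with Grp and Atoh1 positive cells past another limit, and 527 were higher against hair cells without Grp.

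The gates shared much of their lists. Of genes measured in both, 207 were higher in GFP high and 773 in GFP low, and 198 were in both lists, which is 95.65% of the first list and 25.61% of the second. For lower genes the lists held 585 and 1588 genes, with 537 in both, or 91.79% and 33.82%. These 198 and 537 genes are 2.13% and 5.79% of the 9282 genes measured in both gates. No gene was higher in GFP high and lower in GFP low, and 1 gene was the reverse.

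Ccdc88b, a coiled-coil protein of the girdin family (chr19:6844623-6858211, minus strand, mm10), had the largest ratio in GFP high of the genes that were higher in both gates and reached 50 CPM. It was 114, 114, 144 and 91.0 CPM in Grp-positive cells at day 16, day 20, GFP high and GFP low, against 33.9, 5.54, 17.9 and 2.97 CPM in the other hair cells, a ratio of 8.04 (7.44 to 8.70) in GFP high. It was found in 160 of 273 GFP high Grp-positive cells, or 58.61%, and in 14.58% of the other hair cells. It passed the size rule in all 4 libraries and was at 3.38 times the level of the other hair cells at day 16.

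Next came Insl6, an insulin-like peptide known from male germ cells, at 258 CPM in GFP high Grp-positive cells and 48.4 CPM in the other hair cells, and at 706 CPM in Grp-positive and 26.6 CPM in other hair cells in GFP low. Insl6 did not differ in that direction at day 16, where it was 44.6 CPM in Grp-positive and 55.9 CPM in other hair cells and 1 cell held 45.95% of the Grp-positive UMIs. The third was Psph, the phosphatase that completes serine synthesis (chr5:129765558-129787449, minus strand), with 717, 643, 639 and 658 CPM in Grp-positive cells of the 4 libraries, against 337, 116, 168 and 33.0 CPM in the other hair cells. Psph was found in 97.8% of GFP high Grp-positive cells and 58.65% of the other hair cells. Its level in Grp-positive cells lay between 639 and 717 CPM in the 4 libraries, while its ratio was 2.13 at day 16 and 19.9 in GFP low.

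The 8 genes that came next were P2rx3, Hpn, Rprm, Cryab, Mfge8, Eif4ebp1, Phgdh and Fgf21, with GFP high ratios between 3.80 and 3.04. P2rx3, an ATP-gated cation channel known from sensory neurons, was 64.5 CPM in GFP high Grp-positive cells and 17.0 CPM in the other hair cells. Cryab, a small heat shock protein, was 1177 CPM in Grp-positive and 344 CPM in other hair cells, and was found in 98.53% of Grp-positive cells and 62.02% of the others. Rprm, a p53 target linked to cell cycle arrest, was 97.8 CPM in Grp-positive and 27.5 CPM in other hair cells. Mfge8, a secreted protein that bridges dying cells to phagocytes, was 274 CPM in Grp-positive and 85.7 CPM in other hair cells. Hpn, the membrane serine protease hepsin, was 282 CPM in Grp-positive and 78.1 CPM in other hair cells. Rprm, Hpn and Eif4ebp1 also passed the size rule at day 16, together with Ccdc88b and Psph.

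**Figure D3:**
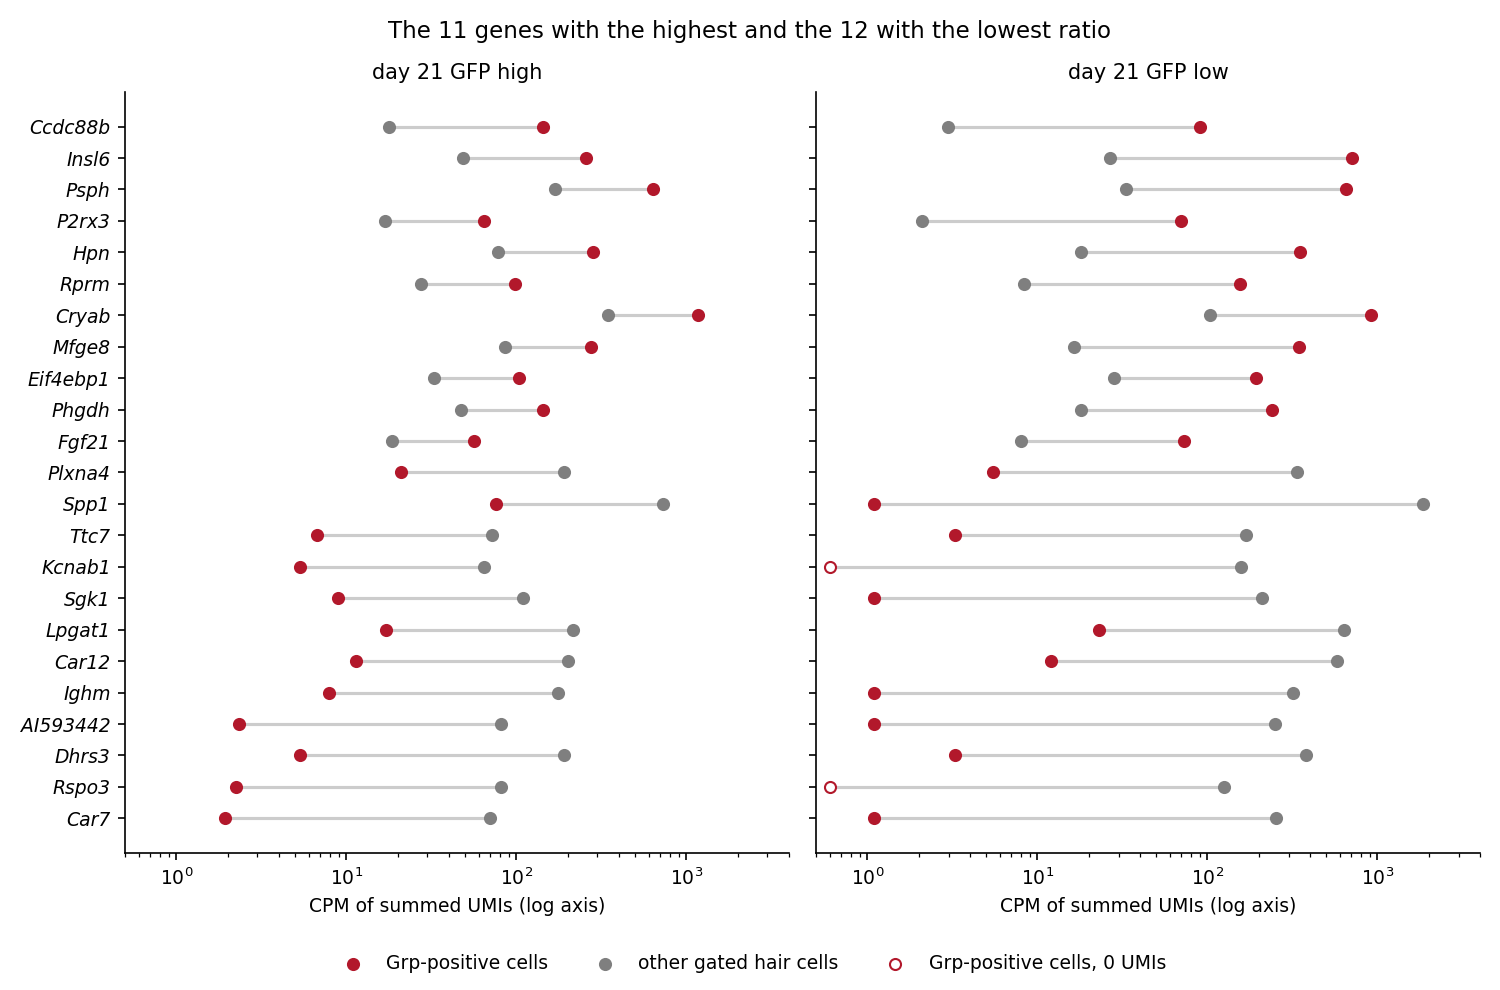
CPM of the 11 genes of highest ratio and the 12 of lowest ratio that passed in both gates, in Grp-positive and other hair cells of GFP high (left) and GFP low (right), on a log axis with open circles for genes without a UMI. Ccdc88b lies at 144 CPM in Grp-positive and 17.9 CPM in other hair cells of GFP high, and the genes of the lower block fall to 0 UMIs for Rspo3 and Kcnab1 in GFP low Grp-positive cells.

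The 12 genes with the lowest ratios included 2 carbonic anhydrases, Car7 and Car12, which handle acid and bicarbonate. Car7 was 1.61, 0, 1.92 and 1.10 CPM in Grp-positive cells at day 16, day 20, GFP high and GFP low, against 22.4, 106, 69.9 and 253 CPM in the other hair cells. Car12 was 11.4 CPM in Grp-positive and 200.1 CPM in other hair cells in GFP high, and 12.1 CPM in Grp-positive and 581 CPM in other hair cells in GFP low. Dhrs3, a retinaldehyde reductase that lowers retinoic acid, was 5.34 CPM in Grp-positive and 190.4 CPM in other hair cells in GFP high, a ratio of 0.0281 (0.0208 to 0.0370). Rspo3, a secreted amplifier of Wnt signalling, was 2.24 CPM in Grp-positive and 81.0 CPM in other hair cells in GFP high, and had no UMI in GFP low Grp-positive cells, against 125 CPM in the other hair cells. Set at the floor of 3 UMIs over the group, the GFP low ratio of Rspo3 is at most 0.0263.

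Spp1, osteopontin, which marks type I hair cells of the vestibular organs, was 2.41, 2.16, 75.9 and 1.10 CPM in Grp-positive cells, against 19.8, 832, 726 and 1846 CPM in the other hair cells. Much of its GFP high level came from few cells: 43 of 273 held a UMI and 1 cell held 42.39% of them. Kcnab1, a potassium channel beta subunit, was 5.34 CPM in Grp-positive and 64.4 CPM in other hair cells in GFP high, and was without a UMI in GFP low Grp-positive cells, against 158 CPM in the other hair cells. Sgk1, a kinase that regulates ion transport, was 8.98 CPM in Grp-positive and 110 CPM in other hair cells in GFP high, and Plxna4, a semaphorin receptor, was 20.8 CPM in Grp-positive and 189.9 CPM in other hair cells. Ighm, AI593442, Lpgat1 and Ttc7 completed the 12, all with GFP high ratios under 0.1. The other hair cells of GFP high held from 64.4 to 726 CPM of these 12 genes, and Spp1 had the highest level of the 12 in Grp-positive cells.

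Genes known from newly formed hair cells were among the groups on the higher side. Of 18 measured besides Atoh1, 8 passed as higher in GFP high, 1 as lower and 9 did not pass, with a median log2 ratio of 0.91, against -0.03 over all genes. In GFP low 13 were higher and 3 lower, with a median of 1.88, against -0.15 over all genes. At day 20, 7 were higher and none lower (median 0.77, against -0.05 over all genes), and at day 16 none passed, with a median of 0.26 against -0.04. The contrast in these genes was thus read from the later libraries alone.

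Dll3, a Notch ligand family member that acts within the cell, was 131, 125, 121 and 111 CPM in Grp-positive cells at day 16, day 20, GFP high and GFP low, against 80.2, 49.9, 42.2 and 9.37 CPM in the other hair cells. Mfng, a fringe enzyme that modifies Notch, was 127, 86.4, 124 and 142 CPM in Grp-positive cells, against 91.1, 37.1, 47.7 and 10.8 CPM in the others. Hes6, an Atoh1-responsive inhibitor of Hes factors, was 528, 438, 337 and 323 CPM in Grp-positive cells, against 346, 225, 134 and 69.4 CPM in the others. For each of these 3 genes the other hair cells of GFP low held the least, while the Grp-positive level there was close to that of GFP high.

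Gng8, a G protein gamma subunit found in immature hair cells, was 262, 209, 352 and 146 CPM in Grp-positive cells, against 296, 95.8, 130.0 and 22.0 CPM in the others. Mdk, the growth factor midkine, was 411, 723, 808 and 309 CPM in Grp-positive cells, against 245, 93.1, 273 and 101 CPM in the others. Selenom, an endoplasmic reticulum selenoprotein, was 3610.0, 7254, 4037 and 5000.0 CPM in Grp-positive cells, against 2561, 1969, 1411 and 384 CPM in the others. Gng8 is the exception at day 16, where the other hair cells held more of it. Srrm3, a neural splicing factor also used by hair cells, was the gene on the lower side in GFP high, at 26.2 CPM in Grp-positive and 52.6 CPM in other hair cells.

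Among inhibitors of the cell cycle, 3 differed in GFP high, and not all in 1 direction. Cdkn1c, which encodes p57, was 761, 1636, 1261 and 1953 CPM in Grp-positive cells at day 16, day 20, GFP high and GFP low, against 529.6, 659, 552 and 141 CPM in the other hair cells. Cdkn1a, which encodes p21, was 684, 959, 669 and 969 CPM in Grp-positive cells, against 478, 255, 282 and 162 CPM in the others. Cdkn2d, which encodes p19 and keeps mature hair cells out of the cycle, ran the other way, at 257, 289, 205 and 147 CPM in Grp-positive cells against 408, 895, 519 and 551 CPM in the others. Over the list of cycle exit and cyclin D genes, 2 of 14 measured were higher and 1 was lower in GFP high, and the 3 above are those. Over all genes 2.49% were higher and 6.33% lower in GFP high, so the 1 lower of 14 lies near that share.

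Among hair cell transcription factors, 3 of 17 measured were higher in GFP high and none was lower, with a median log2 ratio of 0.29. Besides Hes6 these were Insm1, a zinc finger factor of early outer hair cells, at 38.9 CPM in Grp-positive and 14.1 CPM in other hair cells, whose direction turned against hair cells without Grp, and Lhx3, a LIM factor of hair cells, at 406 CPM in Grp-positive and 195 CPM in other hair cells. Pou4f3, the Atoh1 target that keeps hair cells alive, was 734, 561, 682 and 687 CPM in Grp-positive cells, against 659, 578, 559 and 429 CPM in the other hair cells, and did not pass in any library. Gfi1, a repressor downstream of Pou4f3, was 242 CPM in Grp-positive and 453 CPM in other hair cells in GFP high and 238 CPM in Grp-positive and 499 CPM in other hair cells in GFP low. Its lower value in Grp-positive cells reached the size rule in GFP low and at day 20 but not in GFP high.

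Of 16 Notch ligands, receptors and targets measured in GFP high, 3 were higher, Dll3, Mfng and Hes6, and 4 were lower. The lower ones were the ligand Jag1, at 10.6 CPM in Grp-positive and 23.1 CPM in other hair cells, and the targets Hes1, at 5.13 CPM in Grp-positive and 18.5 CPM in other hair cells, Heyl, at 5.99 CPM in Grp-positive and 32.1 CPM in other hair cells, and Hey2, at 3.10 CPM in Grp-positive and 10.3 CPM in other hair cells. The median log2 ratio of the list was -0.21, but it was positive when cells were limited to 15000 to 60000 UMIs (0.16), thinned (0.18) or averaged per cell (0.15), so the list has no fixed direction. Jag2, a ligand made by hair cells, was 251 CPM in Grp-positive and 163 CPM in other hair cells, and Dll1 was 59.9 CPM in Grp-positive and 52.1 CPM in other hair cells, neither past the size rule. The targets that differ are all low in both groups. The supporting cell marker sum in GFP high, Agr3 of the rule included, was 575.6 CPM in Grp-positive cells and 753.5 CPM in the others. Its part in the Notch values was not tested.

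**Figure D4:**
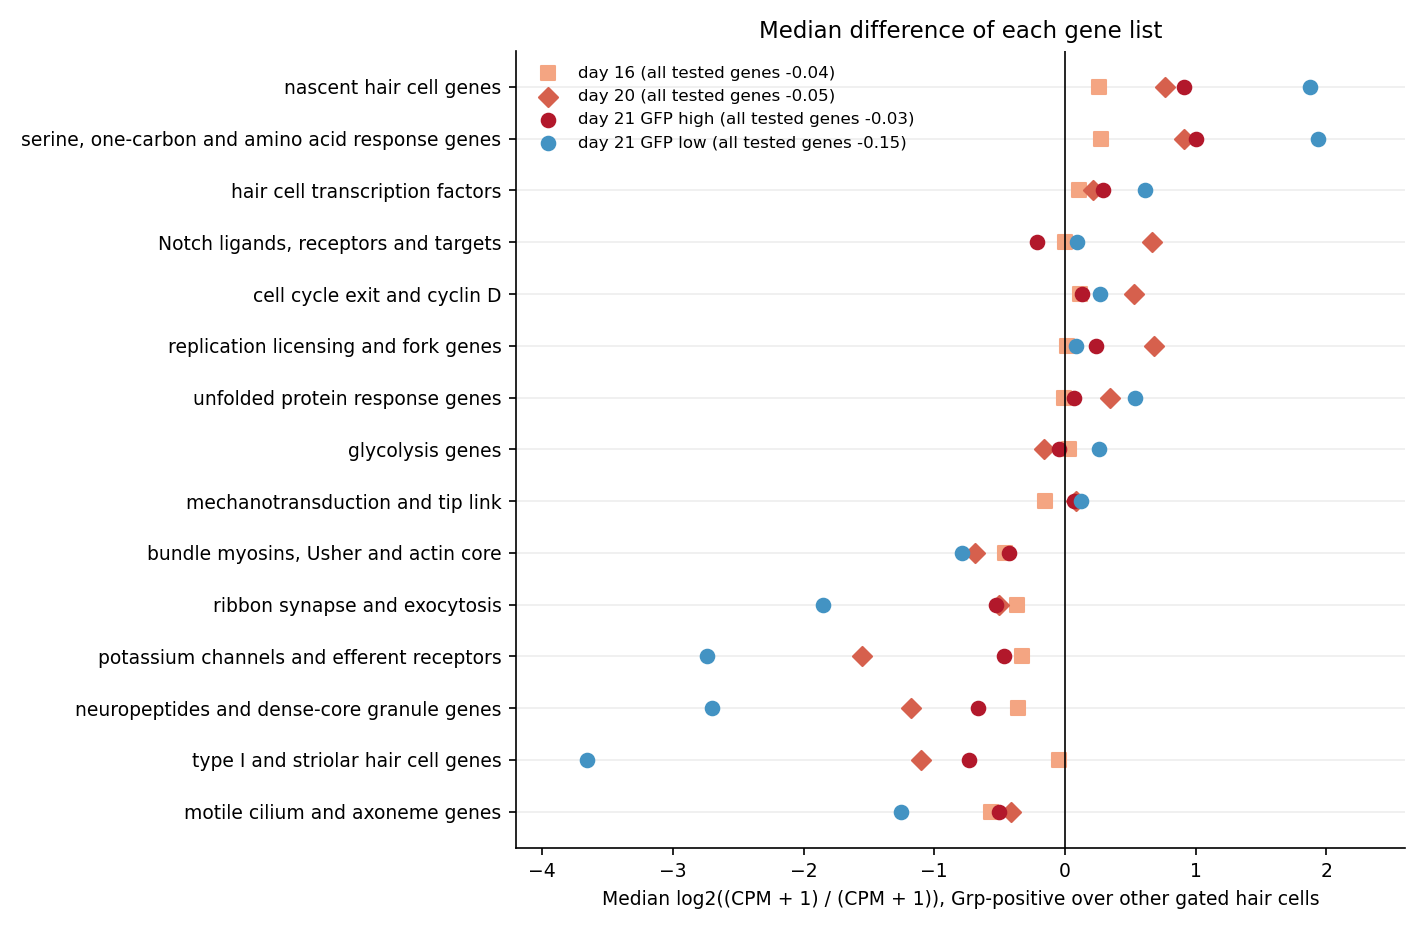
Median log2 ratio of Grp-positive over other hair cells for 15 gene lists in the 4 libraries, each over the genes of the list at 10 CPM or more. Nascent hair cell genes lie at 0.26, 0.77, 0.91 and 1.88 at day 16, day 20, GFP high and GFP low, while synapse, potassium channel and type I lists lie below 0 at day 21. The rule keeps cells past the Ocm and Bmp2 limits out of Grp-positive cells, so the type I list describes the choice in part.

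Genes of serine, one-carbon and amino acid metabolism were also higher together. This list of 26 genes was drawn up after Psph, Phgdh, Eif4ebp1 and Fgf21 had been seen among the highest, so its direction is no independent evidence. In GFP high 10 of 20 measured members were higher and none lower, with a median log2 ratio of 0.999, and in GFP low 16 of 23 were higher and 1 lower, with a median of 1.93. At day 20, 8 of 20 were higher, and at day 16, 3 of 18, namely Psph, Eif4ebp1 and Stc2. Over all genes 2.49% were higher in GFP high, 8.91% in GFP low, 5.77% at day 20 and 1.17% at day 16.

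Phgdh, the first enzyme of serine synthesis, was 69.9, 123, 144 and 239 CPM in Grp-positive cells at day 16, day 20, GFP high and GFP low, against 52.4, 33.8, 47.0 and 18.1 CPM in the other hair cells. Mthfd2, a mitochondrial folate enzyme, was 175, 147, 243 and 326 CPM in Grp-positive cells, against 133, 66.5, 92.6 and 32.6 CPM in the others. Asns, asparagine synthetase, was 111, 84.2, 172 and 307 CPM in Grp-positive cells, against 72.9, 46.0, 73.7 and 56.9 CPM in the others. Both groups thus held Asns in every library, and it was found higher by the size rule in GFP high and GFP low.

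Fgf21, a hormone that starved or stressed cells release, was 56.3 CPM in Grp-positive and 18.5 CPM in other hair cells in GFP high and 72.4 CPM in Grp-positive and 8.03 CPM in other hair cells in GFP low. Stc2, a stanniocalcin, was 117 CPM in Grp-positive and 41.8 CPM in other hair cells of GFP high, and 279.6 CPM in Grp-positive and 51.9 CPM in other hair cells of GFP low. Eif4ebp1, which restrains translation initiation, was 103 CPM in Grp-positive and 32.6 CPM in other hair cells of GFP high, and 193 CPM in Grp-positive and 28.1 CPM in other hair cells of GFP low. Pycr1 of proline synthesis was 37.8 CPM in Grp-positive and 12.5 CPM in other hair cells in GFP high, and Trib3, a pseudokinase, 13.6 CPM in Grp-positive and 5.90 CPM in other hair cells. Atf4, the transcription factor known to drive many of these genes, was 212 CPM in Grp-positive and 120 CPM in other hair cells in GFP high, and 248 CPM in Grp-positive and 91.1 CPM in other hair cells in GFP low, past the size rule in GFP low alone. Ddit3, which encodes CHOP, was 62.1 CPM in Grp-positive and 55.3 CPM in other hair cells of GFP high, and genes of the unfolded protein response gave 1 higher and none lower of 17, with a median log2 ratio of 0.07.

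These genes followed the mitochondrial share within Grp-positive cells. In GFP high, 62 Grp-positive cells had under 1% mitochondrial UMIs, and over all genes 68 of 9227 were higher (0.737%) and 290 lower (3.14%) in them than in the 211 with 1% or more. Of 23 amino acid genes 11 were higher and none lower, with a median log2 ratio of 0.97, against -0.05 over all genes. Asns was 371 CPM under 1% and 114 CPM at 1% or more, and Fgf21 was 121 CPM under 1% and 37.2 CPM at 1% or more. Phgdh was 258 CPM under 1% and 109.7 CPM at 1% or more. The cells with few mitochondrial UMIs thus held more of these transcripts, and whether that share underlies their level was not tested. In the Grp-positive cells with 1% or more, Phgdh was above the 47.0 CPM of all other hair cells, and Asns, at 114 CPM against 73.7 CPM in all other hair cells, was less than 2-fold higher. With both sides limited to cells of 1% or more, 7 genes of the list were higher and none lower in GFP high, with a median log2 ratio of 0.82.

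The promoters of those higher in GFP high were read from RefSeq (GRCm38.p6), from 250 bases before to 50 after the start. Of 10 such genes, 9 had a promoter entry. The letters TGATGNAA, searched on both strands and known from the amino acid response element that ATF4 and its partners bind, stood in 4 of the 9, and in 3.97% of all 32851 promoters of the same length. The whole list of 26 genes held them in 8 of its 26 promoters, from 23 genes with an entry. The list is of genes known from this response, so a share above that of all promoters follows from how it was drawn up. The 4 promoters of the higher genes, all on the minus strand, are shown 5′ to 3′ on the strand of the gene. Those letters and the E-box letters CAGCTG and CAGATG, or their reverse complements, are in capitals.
Asns, chr6:7693160-7693459: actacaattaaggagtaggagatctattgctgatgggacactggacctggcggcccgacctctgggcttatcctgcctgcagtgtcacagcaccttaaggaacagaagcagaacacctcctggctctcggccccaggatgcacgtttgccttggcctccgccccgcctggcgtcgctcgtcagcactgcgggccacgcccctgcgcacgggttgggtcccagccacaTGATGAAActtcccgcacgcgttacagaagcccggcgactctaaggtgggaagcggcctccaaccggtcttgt
Fgf21, chr7:45615441-45615740: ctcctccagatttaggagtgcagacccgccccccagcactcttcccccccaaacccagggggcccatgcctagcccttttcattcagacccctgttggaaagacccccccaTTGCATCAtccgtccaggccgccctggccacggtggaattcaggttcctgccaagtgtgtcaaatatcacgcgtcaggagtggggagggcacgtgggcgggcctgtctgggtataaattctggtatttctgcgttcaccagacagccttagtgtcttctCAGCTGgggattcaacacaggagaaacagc
Pycr1, chr11:120643699-120643998: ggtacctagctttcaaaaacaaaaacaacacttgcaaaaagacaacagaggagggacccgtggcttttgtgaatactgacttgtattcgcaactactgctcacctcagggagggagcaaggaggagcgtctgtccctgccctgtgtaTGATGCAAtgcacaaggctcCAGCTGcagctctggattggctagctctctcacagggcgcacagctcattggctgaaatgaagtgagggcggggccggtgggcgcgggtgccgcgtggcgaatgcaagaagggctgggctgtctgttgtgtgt
Trib3, chr2:152344011-152344310: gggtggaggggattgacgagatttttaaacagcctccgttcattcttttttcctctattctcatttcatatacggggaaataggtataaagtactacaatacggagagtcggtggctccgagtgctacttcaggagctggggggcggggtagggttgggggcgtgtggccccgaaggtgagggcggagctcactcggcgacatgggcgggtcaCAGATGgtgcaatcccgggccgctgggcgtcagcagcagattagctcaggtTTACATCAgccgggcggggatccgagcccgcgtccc
The match is a description of the letters, not of binding. In the same 9 promoters the E-box letters CAGCTG or CAGATG, of the kind that Atoh1 is known to recognise, also searched on both strands, stood in 4, against 30.57% of all promoters, and none overlapped a TGATGNAA match. Of the 12 genes with the highest ratios 7 had entries, with 8 promoters, and 3 of these held such an E-box, those of Fgf21, Hpn and Psph.

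**Figure D5:**
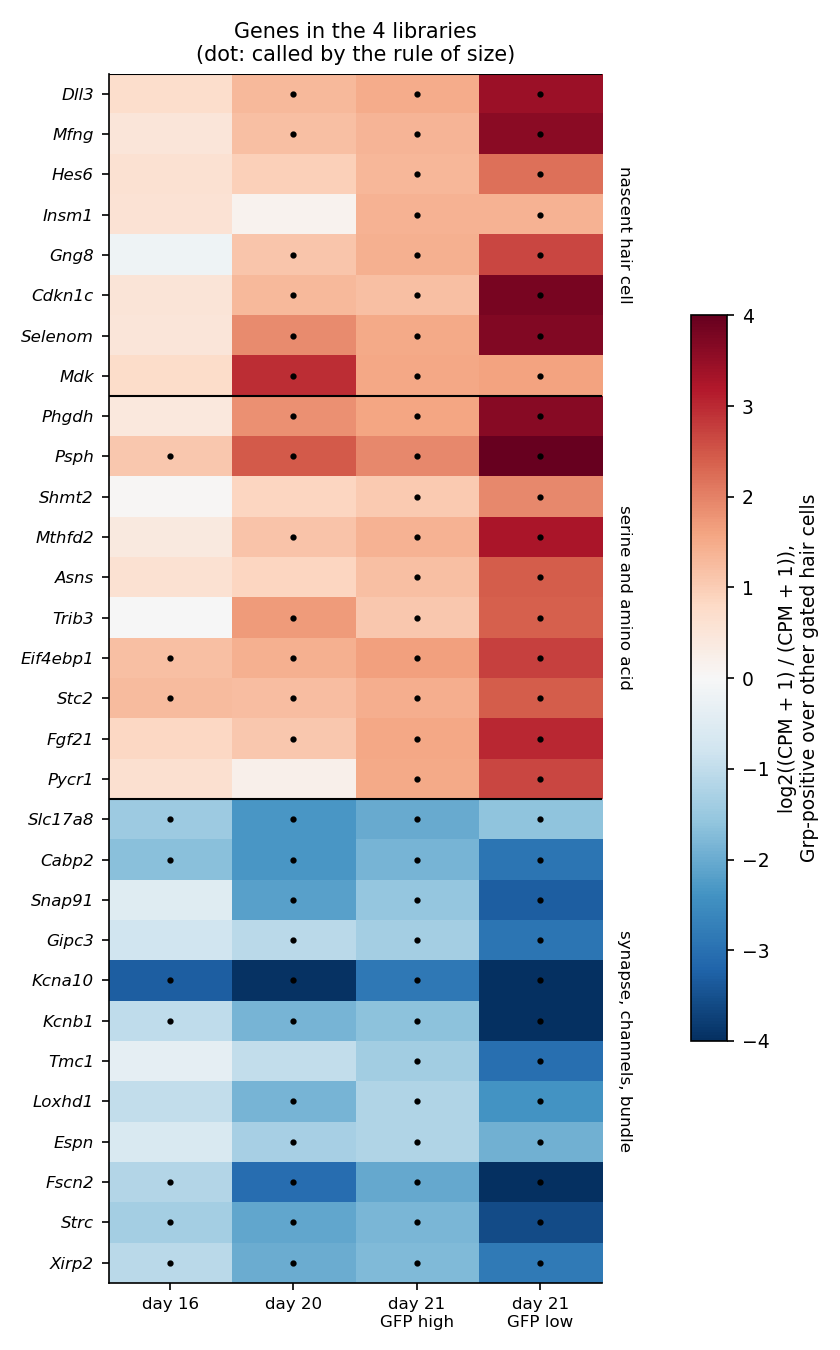
Log2 ratio of Grp-positive over other hair cells in the 4 libraries for nascent hair cell genes, amino acid response genes and examples of synapse, channel and bundle genes, with a dot where the size rule was met. The first 2 blocks are positive except for Gng8 and Trib3 at day 16, with Selenom at 13.04 times and Psph at 19.9 times in GFP low, and the third is negative in every library for Slc17a8, Cabp2, Kcna10 and Xirp2.

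Genes of the mature hair cell were split. The GFP high list counts from here on stand beside 2.49% higher and 6.33% lower over all genes, with a median log2 ratio of -0.03. Of 12 transduction genes measured in GFP high none was higher and 3 were lower, with a median log2 ratio of 0.07. Lhfpl5, a tetraspan protein of the tip link complex, was 1179, 2101, 1102 and 778 CPM in Grp-positive cells at day 16, day 20, GFP high and GFP low, against 939, 1335, 691 and 383 CPM in the other hair cells. Cib2, which binds the channel, was 1057 CPM in Grp-positive and 706 CPM in other hair cells in GFP high. Tmc1, the pore subunit of the mature channel, was 41.0 CPM in Grp-positive and 110 CPM in other hair cells in GFP high and 19.7 CPM in Grp-positive and 166 CPM in other hair cells in GFP low, lower in Grp-positive cells by the size rule in both gates.

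The bundle was represented by 22 measured genes, of which 1 was higher in GFP high, 7 were lower and 14 did not pass, with a median log2 ratio of -0.43. Espn, the actin bundler espin, was 642, 602, 750.0 and 689.6 CPM in Grp-positive cells at day 16, day 20, GFP high and GFP low, against 987, 1522, 1727 and 2619 CPM in the other hair cells. Fscn2, a fascin of growing stereocilia, was 45.2 CPM in Grp-positive and 188 CPM in other hair cells in GFP high, and Strc, which makes the links between stereocilia, was 17.9 CPM in Grp-positive and 65.2 CPM in other hair cells. Xirp2, an actin repeat protein of the bundle and cuticular plate, was 131, 99.3, 192 and 128 CPM in Grp-positive cells, against 278, 399.9, 654 and 907 CPM in the others. Pls1, Ptprq and Grxcr2 were also lower. Tprn, at the stereocilia base, was the gene on the higher side, at 91.3 CPM in Grp-positive and 35.9 CPM in other hair cells.

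Of 19 synapse and exocytosis genes besides Otof, none was higher in GFP high, 6 were lower and 13 did not pass, with a median log2 ratio of -0.53. In GFP low 3 of 18 were higher and 14 lower, against 8.91% and 17.9% of all genes. Slc17a8, the vesicular glutamate transporter VGLUT3 of cochlear hair cells and a part of vestibular ones, was 38.2, 30.2, 49.4 and 54.8 CPM in Grp-positive cells, against 105, 157, 202 and 169 CPM in the others. Cabp2, a calcium binding protein that tunes the synaptic calcium channel, was 88.0, 168, 187 and 119.5 CPM in Grp-positive cells, against 281, 842, 678 and 909 CPM in the others. These 2 genes passed the size rule in all 4 libraries. Slc17a6, Snap91, Cacna2d4 and Gipc3 were the others lower in GFP high.

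Potassium channels and efferent receptors gave 2 higher and 5 lower of 14 in GFP high, with a median log2 ratio of -0.47. Kcna10, a voltage-gated channel of vestibular hair cells, was 6.43, 21.6, 59.9 and 49.3 CPM in Grp-positive cells, against 72.2, 346, 439 and 820.1 CPM in the others. Kcnma1, the BK channel, was 9.30 CPM in Grp-positive and 38.4 CPM in other hair cells in GFP high. Kcnk1, a leak channel, went the other way, at 40.8 CPM in Grp-positive and 14.6 CPM in other hair cells.

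Calcium buffers did not move as a family. Of 12 measured in GFP high 1 was higher and 5 were lower, with a median log2 ratio of -0.15. S100b was the higher one, at 163 CPM in Grp-positive and 69.7 CPM in other hair cells, and Calm2, a calmodulin, was the most abundant of the lower ones, at 2012 CPM in Grp-positive and 4831 CPM in other hair cells. Calb2, calretinin, was 525, 1304, 1468 and 1471 CPM in Grp-positive cells, against 624, 1533, 991 and 365 CPM in the other hair cells, below them at day 16 and day 20 and above them in both day 21 gates. Type I and striolar genes gave 2 higher and 5 lower of 10 (median -0.73), and type II and extrastriolar genes 1 higher and 1 lower of 11 (median -0.31). Ocm and Bmp2, limits of the rule, are on the type I list and were left out of its counts. The rule puts cells past those limits among the other hair cells, so the type I counts cannot be told apart from that choice. No direction was read from the type II counts, with 1 gene each way. Genes known from cochlear hair cells split evenly, with 3 higher and 3 lower of 14 (median -0.12). The one type II gene on the higher side was Anxa4, an annexin, at 1178 CPM in Grp-positive and 549 CPM in other hair cells.

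Retinoid genes were among the signalling genes that differed. Of 20 BMP, FGF and retinoid genes measured in GFP high, 2 were higher and 5 lower. Rarb, a retinoic acid receptor and target, was 8.44, 2.16, 13.9 and 26.3 CPM in Grp-positive cells at day 16, day 20, GFP high and GFP low, against 19.2, 51.5, 99.8 and 199 CPM in the others. Stra6, the retinol importer, was 7.70 CPM in Grp-positive and 39.7 CPM in other hair cells in GFP high, and Crabp2, which carries retinoic acid to the nucleus, was 27.8 CPM in Grp-positive and 5.70 CPM in other hair cells, on the higher side with the FGF receptor Fgfr3, at 13.5 CPM in Grp-positive and 1.65 CPM in other hair cells. Among neuropeptide and granule genes 2 of 10 besides Grp were higher and 2 lower (median -0.67), with Nppc, the C-type natriuretic peptide, at 22.2 CPM in Grp-positive and 5.35 CPM in other hair cells. Neuronal markers gave none higher and 2 lower of 7.

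Other hair cells are a mixture, so Grp-positive cells were also set against classes of them in GFP high. These were 1314 cells past the Cib3 limit alone, 177 past the Ocm limit alone, 44 past the Bmp2 limit alone and 382 that were past none of these and not Grp-positive, called the rest. Higher genes numbered 234 of 9529 over the Cib3 class (2.46%), 941 of 9598 over the Ocm class (9.8%), 634 of 9687 over the Bmp2 class (6.54%) and 255 of 9576 over the rest (2.66%). Lower genes numbered 574 (6.02%), 992 (10.3%), 920 (9.5%) and 577 (6.03%). By these counts the Ocm class was the farthest from Grp-positive cells and the Cib3 class and the rest were the nearest. The Cib3 class includes 356 cells that only the Cib3 limit kept from being Grp-positive, so its nearness is partly built in. Cells left out by Agr3 alone are likewise in the rest. Summed UMIs ran from 1598638 in the Bmp2 class to 44152279 in the Cib3 class, which bears on how many genes can pass.

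Ccdc88b, Psph and Selenom had their highest level in Grp-positive cells beside each of these classes. Ccdc88b was 144 CPM in Grp-positive cells, and 17.7, 4.97, 65.1 and 23.2 CPM in the Cib3, Ocm and Bmp2 classes and the rest. Psph was 639 CPM in Grp-positive cells, and 197, 48.2, 149.5 and 166 CPM in those classes, and Selenom was 4037 CPM in Grp-positive cells, against 1770.0, 253, 801 and 1142 CPM in those classes. Gng8 differed from class to class, with 352 CPM in Grp-positive cells, 41.0 CPM in the Cib3 class and 493 CPM in the Ocm class. Kcna10 was lower in Grp-positive cells than in each class, at 59.9 CPM against 483, 199, 598 and 233 CPM in those classes, and so was Xirp2, at 192 CPM against 678, 564, 627 and 559 CPM in those classes. Cabp2 and Slc17a8 were lower than in the Cib3 class, at 187 against 831.5 CPM and 49.4 against 248 CPM, but Cabp2 was 149 CPM and Slc17a8 56.3 CPM in the Ocm class.

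Much of the Grp-positive pattern was shared by the 463 GFP high cells that passed the Grp and Atoh1 limits and were left out by Cib3, Agr3, Bmp2 or Ocm. Against them 42 of 9382 genes were higher in Grp-positive cells (0.448%) and 245 lower (2.61%). Egfp was 9206 CPM in Grp-positive cells and 7308 CPM in those cells, Selenom 4037 CPM in Grp-positive cells and 3307 CPM in cells past a limit, Dll3 121 CPM in Grp-positive cells and 99.0 CPM in cells past a limit, and Psph 639 CPM in Grp-positive cells and 433 CPM in cells past a limit, none past the size rule. Mcm6 was 209 CPM in Grp-positive cells and 336 CPM in cells past a limit and Pvalb 1271 CPM in Grp-positive cells and 1433 CPM in cells past a limit, both with the higher value outside the class. Nascent hair cell genes gave 2 higher and none lower of 18, with a median log2 ratio of 0.23, against -0.02 over all genes.

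Some genes differed in this closer comparison. Ccdc88b was 144 CPM in Grp-positive cells and 46.7 CPM in cells past a limit (ratio 3.09, 2.84 to 3.36), Gng8 352 CPM in Grp-positive cells and 104 CPM in cells past a limit, Insl6 258 CPM in Grp-positive cells and 104 CPM in cells past a limit and Asns 172 CPM in Grp-positive cells and 74.8 CPM in cells past a limit. Cabp2 was 187 CPM in Grp-positive cells and 406 CPM in cells past a limit, Slc17a8 49.4 CPM in Grp-positive cells and 105 CPM in cells past a limit and Kcna10 59.9 CPM in Grp-positive cells and 129 CPM in cells past a limit, all lower in Grp-positive cells. Of 18 Notch genes none was higher and 9 were lower, among them Jag1, Lfng, Notch1, Hes1, Hey1 and Heyl, with a median log2 ratio of -0.84, and of 13 supporting cell markers 1 was higher and 8 lower. Agr3, one of the limits, is itself on the supporting cell list and was left out of its counts. Of the 463 cells past a limit, 88 were past that of Agr3, so the rule itself put cells with this marker there. The supporting cell and Notch counts here cannot be told apart from that choice. Bundle genes gave none higher and none lower of 23.

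Within day 21, Grp-positive cells of the GFP high gate were compared with those of the GFP low gate. Of 9204 genes 551 were higher in GFP high (5.99%) and 148 lower (1.61%), and the median log2 ratio over all genes was 0.11. Atoh1 was 386 CPM in GFP high and 338 CPM in GFP low, Grp 512 CPM in GFP high and 601 CPM in GFP low, Pvalb 1271 CPM in GFP high and 1136 CPM in GFP low and Mcm6 209 CPM in GFP high and 286 CPM in GFP low, none past the size rule. Egfp itself was 9206 CPM in GFP high and 6050.0 CPM in GFP low, a ratio of 1.52 that does not reach 2, although the cells were sorted on GFP. Atoh1 and Grp were chosen for in both gates, so their levels say nothing of likeness between them.

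The genes highest in GFP high over GFP low were Spp1, Cldn14, Mt2, Clu, Scg3 and Nnat. Spp1 was 75.9 CPM in GFP high and 1.10 CPM in GFP low, with 1 UMI in GFP low and a ratio of 69.2 whose interval runs from 12.4 to 2737. Mt2, a metallothionein, was 54.5 CPM in GFP high and 5.48 CPM in GFP low, Clu, the chaperone clusterin, 54.3 CPM in GFP high and 6.58 CPM in GFP low, and Scg3, a secretory granule protein, 55.6 CPM in GFP high and 9.87 CPM in GFP low. Nnat was 412 CPM in GFP high and 73.5 CPM in GFP low, with 31.9% of the GFP high UMIs from 1 cell. Synapse genes gave 9 higher and none lower of 18 (median 1.01), neuropeptide genes 5 higher and 1 lower of 8, potassium channels 5 higher and none lower of 12, and bundle genes 4 higher and none lower of 21. GFP low Grp-positive cells thus held less of 9 synapse genes than those of GFP high.

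On the lower side in GFP high were Ftl1-ps1, Socs3, Ier5l, Col2a1, Ccnd2 and Insl6. Insl6 was 258 CPM in GFP high and 706 CPM in GFP low and is the best spread of these, found in 113 of 273 cells of GFP high and 26 of 32 of GFP low. Single cells held 87.79% of the Ftl1-ps1 UMIs, 60% of the Col2a1 UMIs and 36.9% of the Socs3 UMIs in GFP low. Amino acid genes gave none higher and 5 lower of 23, with a median of -0.68. The mitochondrial share moves with this comparison, and between cells under 1% in both gates 278 of 9039 genes were higher (3.08%) and 130 lower (1.44%). There Insl6 was at 0.65 times and Phgdh at 1.01 times and Asns at 1.08 times the GFP low level, none past the size rule, while Mt2 and Scg3 were still higher, at 5.77 and 3.91 times.

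Several levels in Grp-positive cells differed by day, each day being 1 library or, at day 21, 1 library per gate. Stmn1, a microtubule destabiliser of young cells, was 1177 CPM at day 16, 512 CPM at day 20, 233 CPM in GFP high and 241 CPM in GFP low. Crabp2 was 187, 82.0, 27.8 and 27.4 CPM. Tubb3, a neuronal tubulin, was 247, 17.3, 6.63 and 14.2 CPM, with 31.38% of the day 16 UMIs from 1 cell. Levels that were higher later included Calb2, at 525 CPM at day 16 and at least 1304 CPM in each later library. Tmc1 was higher in GFP high, at 41.0 CPM, than at day 16, at 12.9 CPM. At day 20 and in GFP low it was 17.3 and 19.7 CPM, from few UMIs, and no difference from day 16 was read there. Otof, a gene of the gate, was 334 CPM at day 16, 335 CPM at day 20, 620.4 CPM in GFP high and 513 CPM in GFP low. The libraries differ in sorting as well as day, and the 2 cannot be told apart.

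At day 16 tubulin and axonal cytoskeleton genes, a list drawn up after the values were seen, differed more in sum than per cell. Of 20, 5 were higher and none lower, with a median log2 ratio of 0.84, against 3 of 18 higher in GFP high with a median of -0.01. Over all genes of day 16, 1.17% were higher and 3.31% lower, with a median of -0.04. Stmn1 was 1177 CPM in Grp-positive and 543 CPM in other hair cells, and Tubb2b 1082 CPM in Grp-positive and 503 CPM in other hair cells. The list summed to 10699.7 CPM in Grp-positive cells, against 7617 CPM in the other hair cells, but its median per cell was 7092 CPM in Grp-positive cells, against 6909 CPM in the others, and 1 Grp-positive cell reached 47881 CPM. Tubb3 lay in the cells of low Atoh1, at 6.84 CPM in Grp-positive cells of highest and 526 CPM in those of lowest Atoh1. Neuron markers moved with it, with the sums given above and medians per cell of 1002 CPM in Grp-positive cells and 962.1 CPM in the others, and their part in the day 16 values was not tested. Among 8901 genes measured both at day 16 and in GFP high, 53 were higher at day 16, 203 in GFP high and 29 in both. The 29 are 54.72% of the day 16 list and 14.29% of the GFP high list. Lower genes numbered 239 at day 16 and 431 in GFP high, with 142 in both, or 59.41% and 32.95%. Mesenchymal markers were lower in Grp-positive cells at day 16 in 7 of 9 cases and at day 20 in 6 of 7, against 3.31% and 8.18% of all genes. The other hair cells there held 622.0 and 556.7 CPM of them in sum. Few cells carried these sums: the median per cell at day 16 was 61.64 CPM in Grp-positive and 60.45 CPM in other hair cells, at day 20 it was 47.97 CPM in Grp-positive and 61.97 CPM in other hair cells, and single other hair cells reached 59698 CPM at day 16 and 39373 CPM at day 20.

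Grp-positive cells also varied among themselves. When those of GFP high were ranked by Atoh1 CPM, 91 cells with the highest level were compared with 91 with the lowest, and 180 of 9348 genes were higher (1.93%) and 256 lower (2.74%). Mdk was 1382 CPM in the cells of highest Atoh1 and 401 CPM in those of lowest. Mfng was 164 CPM in the cells of highest and 85.2 CPM in those of lowest Atoh1, Mcm6 253 CPM in the cells of highest and 153 CPM in those of lowest Atoh1, Hes6 406 CPM in the cells of highest and 244 CPM in those of lowest Atoh1 and Egfp 11900.5 CPM in the cells of highest and 7934 CPM in those of lowest Atoh1, all under 2-fold. Gng8 ran the other way without passing the size rule, at 211 CPM in the cells of highest and 409 CPM in those of lowest Atoh1, as did Lhfpl5, at 728 CPM in the cells of highest and 1377 CPM in those of lowest Atoh1, and Calb2, at 1090.0 CPM in the cells of highest and 1955 CPM in those of lowest Atoh1. Atoh1 shares the total UMIs of each cell with these genes, and the median mitochondrial share was 2.53% in the cells of highest and 3.23% in those of lowest Atoh1.

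At day 16 the same ranking gave 292 of 9432 genes higher (3.1%) and 496 lower (5.26%). Mdk was 682 CPM in the cells of highest and 220.0 CPM in those of lowest Atoh1, Mcm6 155 CPM in the cells of highest and 39.4 CPM in those of lowest Atoh1, Pvalb 870.5 CPM in the cells of highest and 365 CPM in those of lowest Atoh1, and Gng8 177 CPM in the cells of highest and 415 CPM in those of lowest Atoh1. The direction of Mdk, Mcm6 and Gng8 was thus the same at day 16 and in GFP high. Egfp and Lhfpl5 turned, with Egfp at 0.69 times at day 16 and 1.5 times in GFP high, and Lhfpl5 at 1.23 times at day 16 and 0.529 times in GFP high, none of them past the size rule. Insl6 at 2.94 times and Tmc1 at 5.28 times passed as higher at day 16, while in GFP high they were at 0.706 and 0.673 times. A single cell held much of the Grp-positive Insl6 UMIs of day 16, as given above. Day 16 Tmc1 was 21.9 CPM in the cells of highest and 4.15 CPM in those of lowest Atoh1 (interval of the ratio 1.70 to 21.68). No difference between the libraries was therefore read from Insl6 and Tmc1. Otof was at 1.32 times at day 16 and 0.641 times in GFP high. Ranked by Grp instead, GFP high Grp-positive cells gave 86 of 9307 genes higher (0.924%) and 108 lower (1.16%). Gng8 was 613 CPM in the cells of highest Grp and 256 CPM in those of lowest, Cryab 1773 CPM in the cells of highest Grp and 758.5 CPM in those of lowest, and Gsn, the actin severing protein gelsolin, 68.0 CPM in the cells of highest Grp and 226 CPM in those of lowest. Gng8 did not follow the ranks in steps, since the cells of middle Grp held 161.4 CPM and those of middle Atoh1 427.5 CPM, and its difference by Atoh1 did not pass in GFP high. At day 16 Gng8 by Grp was at 1.16 times, also short of the size rule.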

How the data were processed

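Gene expression was measured by droplet single-cell RNA sequencing in 4 libraries, 1 per group. The matrices that the authors deposited give UMI counts for every gene in every barcode, whole and not normalised, written by Cell Ranger 6.1.2 per the file headers. The submitters' processing notes name mm10, Seurat 4.0.6 and Cell Ranger 6.1.0, and the annotation is not given in the sources used here. Of 32289 genes, 78 share a symbol and were kept apart by identifier, and coordinates come from GENCODE M21, which held 32235 of the identifiers.

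Within each library counts were summed by class of cell, divided by the total and scaled to CPM (pandas 2.3.3, scipy 1.17.1 and numpy 2.4.6 in Python 3.11.15). Levels carry exact Poisson, ratios exact conditional binomial and shares exact Clopper-Pearson 95% intervals. These cover counting error only, since cells of 1 library are not replicates. Genes compared had at least 10 CPM in either class. The genes of the rule were left out of counts and list medians, but not of the summed marker levels. A ratio against a class without a UMI was set at the floor of 3 UMIs. Scrublet in Scanpy 1.11.5 called 9, 95, 15 and 16 doublets on its own threshold at day 16, day 20, GFP high and GFP low. The highest scores at 0.8% per 1000 barcodes were therefore marked (120, 205, 109 and 137 cells), kept in the main results and left out in an alternative. Mesenchymal cells, used as the background for shares, held at least 5 UMIs of Col1a1 and none of Otof. The calculation was tested on simulated counts with 200 changed genes, and the TMM scaling used edgeR 4.0.16 with R 4.3.3.

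Named genes were the 12 highest and 12 lowest ratios in GFP high among genes of at least 50 CPM that passed in both gates, leaving out the genes of the rule, mitochondrial, ribosomal protein and predicted genes. To these were added the 6 highest and 6 lowest for GFP high over GFP low, the 6 markers given with the class, and up to 5 per list. Some genes that the rule names are not reported here. Genes outside this rule that stand beside a list count, and those given across days, were chosen after their values were seen. The cells, the markers and the 31 lists were chosen with earlier results of these data known, and 2 of the lists were drawn up after the ratios had been seen. Of 487 listed genes 482 were in the files. Promoters are those of RefSeq on GRCm38.p6. The alternatives tried were limits in CPM, other Grp and Atoh1 limits, a depth range, thinning to 10000 UMIs, doublet removal, stricter cell filters, scaling, the CPM minimum and the cells compared with.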

Additional observations from a re-analysis of the deposited data

Results flagged for a closer look

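For 5 genes the log2 ratio of Grp-positive over other hair cells passed the size rule in opposite directions in different libraries. With 1 library each, the difference between libraries was not tested. Cnmd, chondromodulin of nonsensory otic and cartilage cells, was at 1.888 at day 20, and at -2.504 (GFP high) and -2.719 (GFP low) at day 21. Oc90, the main otoconial matrix protein, was at 2.317 at day 16, and at -1.506 (GFP high) and -1.771 (GFP low) at day 21, and 1 cell held 79.82% of its Grp-positive UMIs at day 16 and 51.46% in GFP high. S100a11, a calcium-binding protein, was at 2.06 at day 20, and at -1.384, -1.63 and -1.07 in the day 16, GFP high and GFP low libraries. Nppc was at -2.48 at day 20, where Grp-positive cells held 1 UMI, and at 1.871 (GFP high) and 1.632 (GFP low) at day 21. Gal, the neuropeptide galanin, was at 1.731 at day 20 and -1.732 in GFP high.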

How the results depend on the processing

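Of the counts of genes recomputed, 92 stayed within 1.5 times and 18 did not, and of the shares 28 stayed within their interval and 4 did not. Leaving out doublets, stricter cell filters, TMM scaling and totals without mitochondrial genes are all among the settings without such a move. In GFP high, the 238 higher genes became 361 in thinned cells, 673 with no CPM minimum, 527 against hair cells without Grp that passed no limit and 42 against Grp and Atoh1 positive cells past a limit. The 605 lower genes became 1553 with no CPM minimum and 245 against those past a limit. In GFP low, the 865 higher genes became 244 against cells past a limit, and the 1738 lower genes 850 in cells with 1% or more mitochondrial UMIs. Genes higher in both gates numbered 397 against cells without Grp and 10 against those past a limit, and genes lower in both 290 with 1% or more mitochondrial UMIs and 197 against those past a limit. For GFP high over GFP low, the 551 higher genes became 366 with no Atoh1 limit, 332 thinned, 245 with 1% or more and 278 with under 1% mitochondrial UMIs, and the 148 lower became 290 with no CPM minimum and 349 with 1% or more. The GFP high share of 11.75% became 9.38% at 6 or more Grp UMIs, 10.29% thinned and 9.67% with 1% or more mitochondrial UMIs, and the GFP low share of 4.685% became 0.9836% there, from 6 cells. The cause was not tested.

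Directions turned in GFP high for some list medians and genes. The Notch median was 0.1625 at 15000 to 60000 UMIs, 0.18 thinned, 0.147 per cell and 0.1923 against cells without Grp, and the neuron marker median was 0.4059 with limits in CPM. Against cells without Grp the supporting cell median was 0.025, the nonsensory otic median 0.7544, Oc90 0.2343, Insm1 -0.28, S100a11 0.0628 and Gal 0.1929. Against cells past a limit Cldn14 was 1.002, Mt2 0.3606, Rbfox3 0.4023, Slc17a6 0.9749 and Syt1 1.144. The comparison with cells past a limit, the splits by mitochondrial share and totals without mitochondrial genes were added after the data were seen. No paired analysis was possible because each group has 1 library. With 19 and 32 Grp-positive cells at day 20 and in GFP low, single cells can hold much of a gene's UMIs, and counting intervals do not include variation between organoids.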

Other observations

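Several genes of signalling and steroid handling that lay below 50 CPM in GFP high were higher in Grp-positive cells of both day 21 gates. They were picked here after their values were seen. Hsd11b2, which inactivates glucocorticoids, was 42.3 CPM in GFP high Grp-positive cells and 6.44 CPM in the other hair cells. Sstr2, a somatostatin receptor, was 23.7 CPM in GFP high Grp-positive cells and 4.81 CPM in the others. Edn2, an endothelin, was 29.7 CPM in Grp-positive and 7.51 CPM in other hair cells, and Scn11a, a sodium channel known from pain-sensing neurons, 17.6 CPM in Grp-positive and 4.09 CPM in other hair cells. In GFP low Hsd11b2, Sstr2, Edn2 and Scn11a were 19.7, 13.2, 74.6 and 15.4 CPM in Grp-positive cells, against 0.233, 1.46, 4.01 and 0.175 CPM in the other hair cells. Mycl, a Myc family factor, was more abundant, at 202 CPM in Grp-positive and 70.9 CPM in other hair cells of GFP high, and 217 CPM in Grp-positive and 19.7 CPM in other hair cells of GFP low.

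Glycolysis genes were close to equal, with none of 15 past the size rule in GFP high (median log2 ratio -0.04) or at day 16. Genes of the motile cilium and axoneme gave none higher and 5 lower of 22 in GFP high, and none higher and 13 lower of 22 in GFP low. Immediate-early and dissociation stress genes gave none higher and 2 lower of 16 in GFP high, and 2 higher and 4 lower of 16 in GFP low. Over all genes 2.49% were higher and 6.33% lower in GFP high, and 8.91% were higher and 17.9% lower in GFP low, so the stress gene counts of GFP low lie near those of all genes.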
